A study of Homo sapiens with 4 samples.

Results

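Molecular chaperones bind unfolded or partly folded proteins and let them fold, refold or be handed on for degradation. HSP70 proteins grip short hydrophobic stretches in a cycle of ATP hydrolysis that J-domain proteins start and that BAG, HSP110 and other exchange factors reset. HSP90 takes over late folding steps of kinases and hormone receptors with a set of co-chaperones, and the barrel-shaped chaperonins fold proteins such as actin and tubulin inside a closed chamber. Heat shock factor 1 (HSF1) drives many of these genes when proteins misfold, and leukaemic cells commonly keep high levels of chaperones. Heat shock proteins and chaperonins are described here as 36 genes of the 60662 in the deposited table. They were taken as the entries whose gene name was on a list of 36 names, with the identifier of the highest summed counts to be used where a name had several; each name had 1 identifier.

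RNA was sequenced from NB4 cells, a human acute promyelocytic leukaemia line that carries the PML-RARα fusion. One group of 2 libraries came from cells transduced with a control vector, and the other group of 2 from cells transduced with a vector expressing JMJD3, a demethylase of lysine 27 on histone H3 encoded by KDM6B. The comparison asks which genes differ once JMJD3 is overexpressed. Nothing in the labels says whether the 2 libraries in each group stem from separate cultures, so p-values measure the spread between these libraries, which may be technical. According to the methods, transduced leukaemia cells were sorted by their fluorescent marker, and cloning is described only for other lines.

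The libraries held 39078443 and 40768225 estimated counts for vector replicates 1 and 2, and 35176388 and 34704909 for JMJD3 replicates 1 and 2. Vector replicate 1 was on lane 20 and the other libraries were on lane 17, so lane and group are partly confounded. Levels are given as CPM, the counts of a gene scaled to a common library size, with edgeR's TMM factors, and where genes are compared with each other, as the authors' FPKM, which is per length. KDM6B itself was at 15.8 and 13.7 CPM in vector cells against 37.9 and 44.1 CPM in JMJD3 cells (log2 fold change 1.48, standard error 0.13, adjusted p = 0.00114 from edgeR), as the labels say, and counts of the gene do not separate vector transcripts from the cell's own. Of the 7 promyelocyte markers, which summed to 16577 and 17373 CPM in vector cells and 10474 and 10436 CPM in JMJD3 cells, MPO was the most abundant and fell with PRTN3, AZU1 and CTSG, CD33 rose, and ELANE and KIT were at or below 0.351 CPM in every library. The 7 erythroid markers were at 0 in all 4 libraries. The T cell markers CD3D, CD3E and CD3G were at or below 0.262 CPM, but TRAC (9.33 and 9.54 CPM in vector cells against 39.3 and 35.5 CPM in JMJD3 cells) and CD2 rose, and the 5 T cell markers summed to 13.1 and 14.8 CPM in vector cells and 50.4 and 46.6 CPM in JMJD3 cells. The 4 B cell markers summed to 25.9 and 30.7 CPM in vector cells and 36.6 and 32.8 CPM in JMJD3 cells, most of it CD79B, with MS4A1 at 0. CD79B was not called, but CD79A rose (7.64 and 8.62 CPM in vector cells against 15.3 and 13.7 CPM in JMJD3 cells). The 4 monocyte markers summed to at most 0.405 CPM, most of it CD14, with FCGR3A at 0, and the 6 fibroblast and epithelial markers summed to 6.72 and 7.68 CPM in vector cells and 3.51 and 2.86 CPM in JMJD3 cells, most of it EPCAM in the former and KRT8 in the latter, with COL1A2 and COL3A1 at 0. Genes of the mitochondrial genome took 7.91% and 7.65% of counts in the vector libraries and 5.73% and 5.86% in the JMJD3 libraries. The part of these shifts in the results was not tested.

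Most chaperone genes were lower in JMJD3 cells by less than 2-fold, and few were higher, although the small differences of HSPA1A, HSPA1B, HSPA8, HSP90AA1, BAG2, BAG3, HSF2, CCT4, STIP1 and FKBP4 turned to positive when only library totals were used for scaling. Fewer cells of a kind and less RNA per cell cannot be told apart in such bulk samples. CRYAB was at 0 counts in every library, a limit of 3 counts or between 0.0786 and 0.0810 CPM from counting error alone, and the other 35 members were tested. At an adjusted p under 0.05, 18 of the 35 were lower and 3 were higher in JMJD3 cells, against 19.1% and 21.6% of all 15246 tested genes. Only CLU and DNAJB4 rose by at least 2-fold, against 7.55% of all tested genes, and 0 members fell that far, against 2.82%. The lowest log2 fold change of a member in any fit was -0.78, so 0 members fell 2-fold with edgeR, DESeq2 or limma at any p threshold. The members' median log2 fold change was -0.21, and that of all tested genes was 0.04. In 25 members both JMJD3 libraries lay below both vector libraries and in 6 they lay above, which 34.8% and 39.6% of all tested genes did. Summed over the members, CPM was 20613 and 20686 in vector libraries 1 and 2 and 17496 and 17096 in JMJD3 libraries 1 and 2.

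Abundant genes as a whole were lower in JMJD3 cells, and most members are abundant. Among the 2137 tested genes with a mean of at least 100 CPM, 44.9% were lower, 8.75% were higher and the median log2 fold change was -0.23. Of the 26 members at that level 18 were lower and 1 was higher, with a median of -0.31. Reading the members against genes of like abundance therefore gives a smaller gap than reading them against all genes. The TMM factors were 0.949 and 0.937 for the vector libraries and 1.05 and 1.07 for the JMJD3 libraries, so scaling bears on the sign of small changes. With library totals alone, an alternative chosen after seeing the data, the median of all tested genes moved up by 0.17 on the log2 scale, 4764 genes were higher and 1598 lower in place of 3292 and 2906, and 9 members were lower and 6 higher. All 18 members that fell kept their sign under the 15 other fits, and HSPA9, HSP90AB1, TRAP1, BAG1 and HSF1 were called in every one. Leaving out vector library 1, the only one on lane 20, gave a median log2 fold change of -0.26 for the members and 0.02 for all tested genes. Leaving out vector library 2 gave medians of -0.21 and 0.03. Both fits assume that the lone vector library varies like the JMJD3 libraries. Without JMJD3 library 1, 8 members were lower (of 1368 genes lower and 2027 higher), and without JMJD3 library 2, 5 were (of 1110 and 1890), in each case with the lone JMJD3 library assumed to vary like the others.

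**Figure D1:**
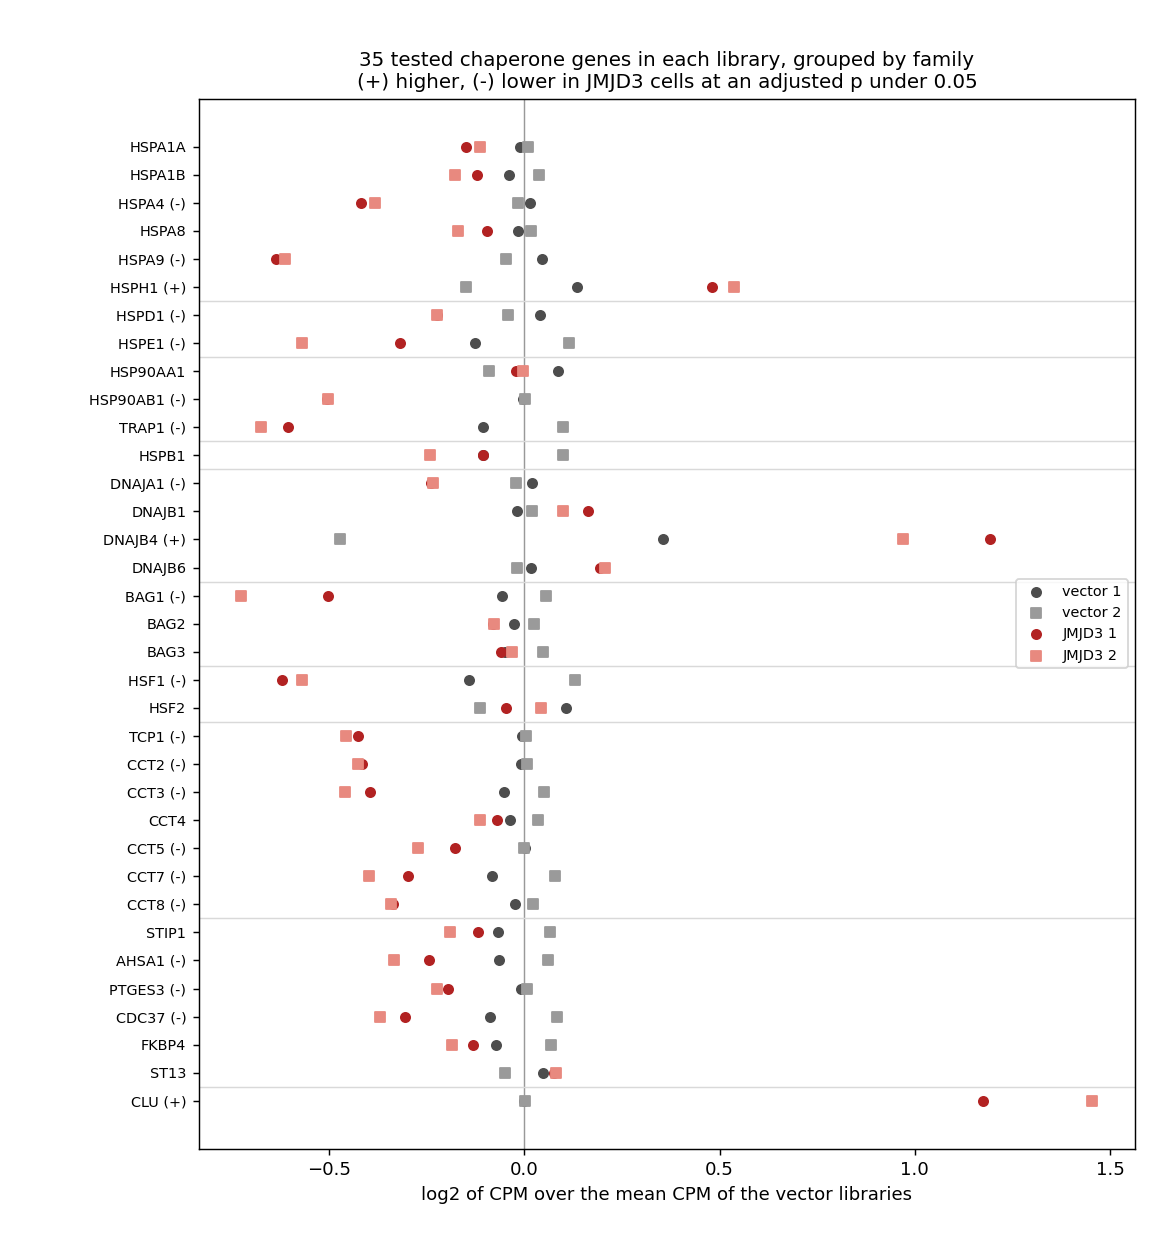
The log2 ratio of CPM in each library to the mean CPM of the vector libraries, for the 35 tested members in family order, with a point for each of the 4 libraries. Points of the JMJD3 libraries lie left of the vector libraries for 25 members and right of them for 6, CLU and DNAJB4 the farthest.

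**Figure D2:**
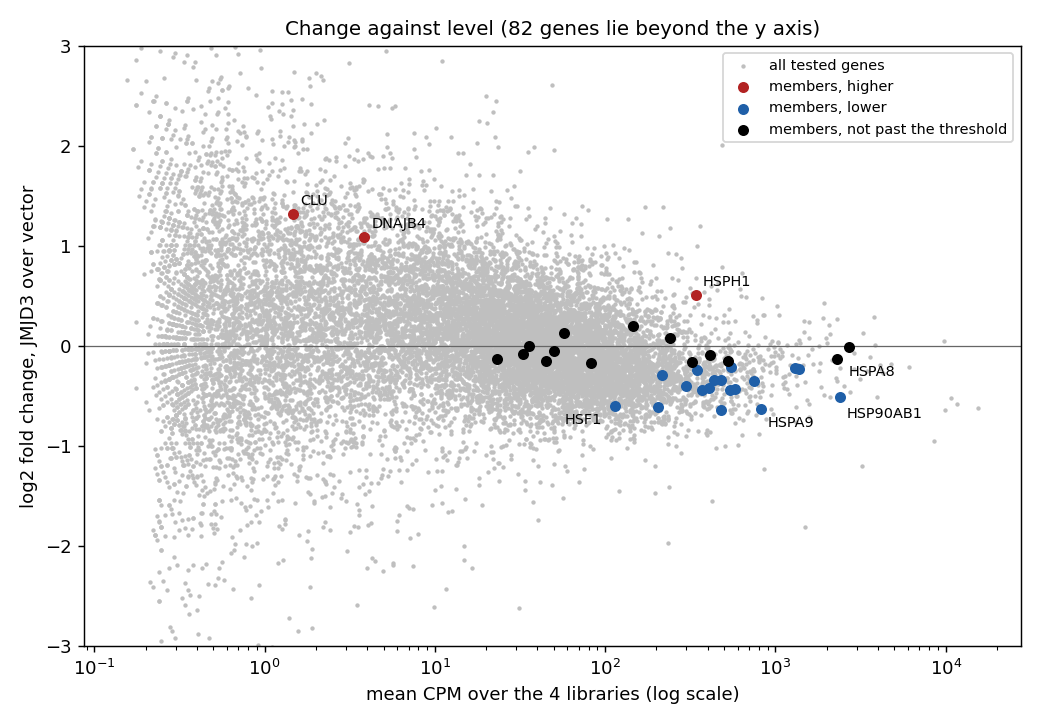
The log2 fold change of each tested gene against its mean CPM on a log axis, with the tested genes in grey and the 35 members in colour by call. Of the 15246 genes, 82 lie beyond the axis, and the grey cloud drifts below 0 at high CPM, where the median over the 2137 genes at 100 CPM or more was -0.23.

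In the HSP70 and HSP110 family the constitutive and inducible cytosolic genes HSPA8, HSPA1A and HSPA1B differed little between the groups and turned sign with library totals alone, the mitochondrial HSP70 fell, and the HSP110 gene HSPH1 rose. HSPA8 (ENSG00000109971, chromosome 11), the constitutive cytosolic HSP70 and the member with the highest FPKM, was at 2392 and 2448 CPM in vector libraries 1 and 2 and 2264 and 2151 CPM in JMJD3 libraries 1 and 2. Both JMJD3 libraries were lower, but the change did not pass the threshold (log2 fold change -0.13, standard error 0.07, adjusted p = 0.153 from edgeR) and its sign turned with library totals alone (0.04). With the planned replicate block it did not pass either (-0.13, adjusted p = 0.410 from edgeR). With a crossed replicate block, added after the data were seen, it did (-0.13, adjusted p = 0.0392 from edgeR). Since that pairing was picked from the same data, no conclusion is drawn from its call. On the FPKM scale the groups overlapped, at 2149 and 2040.2 FPKM in vector cells against 2186 and 1998 FPKM in JMJD3 cells.

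HSPA1A and HSPA1B encode the stress-inducible HSP70 from a pair of near-identical genes 9795 bases apart on chromosome 6, so how their reads were split is uncertain. HSPA1B also shares 36.6% of its exon bases with ENSG00000285565 on the same strand. HSPA1A was at 24.1 and 24.4 CPM in vector cells against 21.9 and 22.4 CPM in JMJD3 cells, and HSPA1B at 46.0 and 48.5 CPM in vector cells against 43.5 and 41.7 CPM in JMJD3 cells. The JMJD3 libraries lay just below the vector libraries for both, and neither passed the threshold (log2 fold change -0.13, standard error 0.10, adjusted p = 0.312 for HSPA1A and -0.15, 0.10 and 0.245 for HSPA1B from edgeR). Summed into 1 gene they gave -0.14 (adjusted p = 0.221 from edgeR). HSPA1B was at -0.23 without vector library 1 and at -0.11 without vector library 2. With library totals alone the signs of HSPA1A and HSPA1B both turned. The strictly inducible HSPA6, named after its values were seen, had 3 and 6 counts in vector cells and 9 and 7 in JMJD3 cells, too few to be tested.

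HSF1 binds inverted repeats of the unit GAA, so promoters were searched on both strands for adjoining pairs of units, GAANNTTC or TTCNNGAA, each of which is its own reverse complement, and for runs of 3 units, GAANNTTCNNGAA or TTCNNGAANNTTC, which hold overlapping pairs. RefSeq (GRCh38.p14) gave the 250 bases before 43 annotated starts of 31 of the 36 members. A pair was found before 14 of these starts and in 11.6% of all 35116 windows of that length, and a run of 3 units before 5, those of HSPD1, HSP90AB1, HSP90AA1, HSPA8 and DNAJB6, and in 0.441% of all windows. A match describes letters, not a bound site. The windows of HSPA1A and HSPA1B are shown since these are the stress-inducible genes and to show how alike they are. Their pairs, in capitals, begin 106 and 105 bases before the start, and 235 of 249 aligned bases are identical. The HSPA1A window is chr6:31815293-31815542, plus strand, and that of HSPA1B is chr6:31827488-31827737, plus strand.
HSPA1A: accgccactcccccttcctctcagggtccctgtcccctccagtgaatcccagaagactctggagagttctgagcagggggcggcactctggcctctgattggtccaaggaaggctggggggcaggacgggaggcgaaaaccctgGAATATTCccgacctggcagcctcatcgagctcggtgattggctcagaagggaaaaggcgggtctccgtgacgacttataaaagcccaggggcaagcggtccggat
HSPA1B: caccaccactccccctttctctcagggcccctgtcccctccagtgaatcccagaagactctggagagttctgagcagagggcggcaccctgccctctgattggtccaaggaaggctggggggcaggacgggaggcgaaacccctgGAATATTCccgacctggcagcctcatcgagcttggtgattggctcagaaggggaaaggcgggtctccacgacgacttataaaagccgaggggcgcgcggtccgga

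HSPH1 (ENSG00000120694, chromosome 13), the HSP110 that resets HSP70 and holds unfolded proteins, was the only member with a mean of at least 100 CPM called higher at an adjusted p under 0.05. It was at 308 and 253 CPM in vector libraries 1 and 2 and 392 and 407 CPM in JMJD3 libraries 1 and 2. Vector library 2 was the lowest, and both JMJD3 libraries lay above both vector libraries (log2 fold change 0.51, standard error 0.11, adjusted p = 0.0111 from edgeR). The change was 0.51 with all 4 libraries, 0.37 without vector library 2 and 0.62 without vector library 1, the only library on lane 20, so that the last value stands within lane 17. With no filter on low counts it just missed the threshold (adjusted p = 0.0548 from edgeR). The 250 bases before its start, chr13:31162389-31162638, minus strand, hold no pair of units and are shown because it was the only abundant member called higher.
HSPH1: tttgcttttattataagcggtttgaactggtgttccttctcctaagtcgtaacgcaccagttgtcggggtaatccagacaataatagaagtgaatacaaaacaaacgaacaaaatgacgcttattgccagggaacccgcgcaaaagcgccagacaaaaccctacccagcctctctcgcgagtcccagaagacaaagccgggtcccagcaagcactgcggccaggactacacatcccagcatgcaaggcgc

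HSPA4, another HSP110-type exchange factor, fell (log2 fold change -0.40, standard error 0.07, adjusted p = 0.00694 from edgeR). The fall did not pass the threshold without JMJD3 library 1 or 2, at log2 fold changes of -0.38 and -0.41. HSPA9 (ENSG00000113013, chromosome 5), the HSP70 of the mitochondrial matrix that pulls in and folds imported proteins, was at 1023 and 959.6 CPM in vector libraries 1 and 2 and 638 and 648 CPM in JMJD3 libraries 1 and 2. Both JMJD3 libraries were close to each other and well below both vector libraries, at 0.648 times the vector level (log2 fold change -0.63, standard error 0.07, adjusted p = 0.00205 from edgeR).

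All 4 mitochondrial members, HSPA9, TRAP1, HSPD1 and HSPE1, were lower in JMJD3 cells, as were 44.9% of all genes with at least 100 CPM, with a summed level of 3400.2 and 3413 CPM in vector cells and 2566 and 2503 CPM in JMJD3 cells. None of them turned sign under any scaling, but HSPD1 and HSPE1 did not pass the threshold with library totals alone (adjusted p = 0.539 and 0.0973 from edgeR), nor did HSPD1 with upper quartile scaling (-0.19, adjusted p = 0.0842) or a replicate block (-0.22, adjusted p = 0.158). HSPD1 and its lid HSPE1 form the mitochondrial chaperonin, and their genes lie head to head on chromosome 2 with 104 bases between them. HSPE1 (ENSG00000115541) was at 392 and 463 CPM in vector libraries 1 and 2 and 343 and 288 CPM in JMJD3 libraries 1 and 2. Vector library 2 stood highest and JMJD3 library 2 lowest, and the groups did not overlap (log2 fold change -0.44, standard error 0.12, adjusted p = 0.0257 from edgeR). Without vector library 2 or JMJD3 library 2 the log2 fold change was -0.32 and did not pass the threshold (adjusted p = 0.0639 and 0.197 from edgeR). HSPE1 shares 10.5% of its exon bases with the readthrough gene HSPE1-MOB4 and 7.41% with HSPD1 on the opposite strand, so reads of HSPD1 could enter its count if strand was not kept. HSPD1 fell less (log2 fold change -0.22, standard error 0.07, adjusted p = 0.0388 from edgeR), from 1440.2 and 1362 CPM to 1200.4 and 1199 CPM. It did not pass the threshold without JMJD3 library 1 or 2, at -0.22 in both fits. On the FPKM scale, looked at for this gene after its values were seen, its groups overlapped, at 892 and 756 FPKM in vector cells against 769.8 and 793 FPKM in JMJD3 cells. Fitted on FPKM with limma its log2 fold change was -0.07, short of the threshold.

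TRAP1 (ENSG00000126602, chromosome 16), the HSP90 of the mitochondrial matrix, was at 545 and 628 CPM in vector libraries 1 and 2 and 386 and 368 CPM in JMJD3 libraries 1 and 2. Both JMJD3 libraries lay well below both vector libraries, of which the first was the lower (log2 fold change -0.64, standard error 0.09, adjusted p = 0.00341 from edgeR). It shares 28.5% of its exon bases with DNASE1 on the opposite strand, and since the sources do not say that strand was kept, reads of the 2 genes cannot be told apart there. DNASE1 had mean counts of 695 and 789 in vector and JMJD3 cells against at least 13621 for TRAP1 in each library. In all 41.9% of the exon bases of TRAP1 are shared. AC006111.1 on the opposite strand covers 13.4% of the exon bases of TRAP1. On the same strand 1.25% are shared with ENSG00000263235, whose mean counts were 157 and 53.8 in vector and JMJD3 cells (log2 fold change -1.52).

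**Figure D3:**
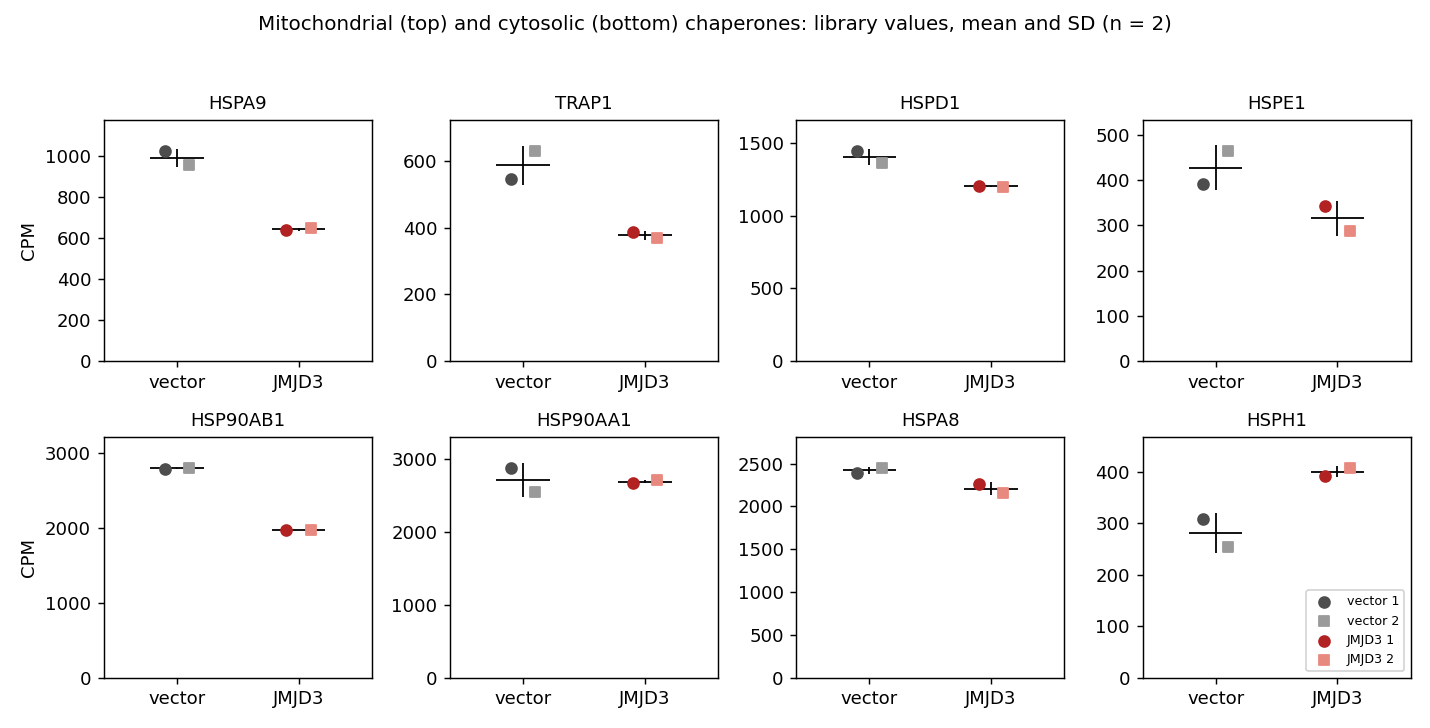
CPM of 4 mitochondrial chaperone genes (top) and 4 cytosolic ones (bottom) in each library, with the mean as a line and the SD as a bar (n = 2). HSPA9, TRAP1 and HSP90AB1 have the largest falls as fold changes, and HSPH1 is higher in both JMJD3 libraries.

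The cytosolic HSP90 genes parted. HSP90AB1 (ENSG00000096384, chromosome 6), the constitutive beta form, was at 2789 and 2799 CPM in vector libraries 1 and 2 and 1969.9 and 1970.3 CPM in JMJD3 libraries 1 and 2. The libraries of each group nearly coincided, and the JMJD3 level was 0.705 times the vector level (log2 fold change -0.50, standard error 0.06, adjusted p = 0.00249 from edgeR). HSP90AA1 (ENSG00000080824, chromosome 14), the stress-inducible alpha form, was at 2878 and 2548 CPM in vector libraries 1 and 2 and 2675 and 2708 CPM in JMJD3 libraries 1 and 2. Its JMJD3 values lay between those of the vector libraries (log2 fold change -0.01, standard error 0.08, adjusted p = 0.916 from edgeR), and its sign turned without vector library 1 (0.04) and under 2 other scalings. The FPKM of HSP90AA1 was thus 0.775 and 0.681 times that of HSP90AB1 in vector cells and 1.02 and 1.04 times in JMJD3 cells, a ratio within each library that does not depend on scaling between libraries. The difference between the ratios was not tested. Both genes carry runs of 3 units near an annotated start. Before the second of 2 starts of HSP90AA1 (chr14:102087045-102087294, minus strand) the pairs begin 88, 83 and 68 bases upstream. Before the third of 3 starts of HSP90AB1 they begin 165, 160, 112 and 107 bases upstream, and the 90 bases around them are shown (chr6:44247763-44247852, plus strand), with the pairs in capitals. These are shown because both genes hold such runs, 1 before that start of HSP90AA1 and 2 before that of HSP90AB1. The windows before their other starts hold no pair, and counts were per gene, not per start.
HSP90AA1: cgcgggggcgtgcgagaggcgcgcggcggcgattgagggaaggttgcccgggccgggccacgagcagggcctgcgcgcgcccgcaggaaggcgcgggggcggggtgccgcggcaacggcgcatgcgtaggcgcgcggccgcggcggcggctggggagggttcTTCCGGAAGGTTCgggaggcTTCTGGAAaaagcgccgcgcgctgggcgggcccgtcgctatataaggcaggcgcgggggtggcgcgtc
HSP90AB1: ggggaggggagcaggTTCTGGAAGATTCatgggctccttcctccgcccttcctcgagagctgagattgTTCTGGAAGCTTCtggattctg

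Of the small heat shock proteins, which hold unfolded proteins without ATP, HSPB1 had overlapping groups and was not called (log2 fold change -0.17, standard error 0.10, adjusted p = 0.227 from edgeR), although it was without vector library 1 (-0.31, adjusted p = 0.0225 from edgeR), against -0.07 without vector library 2 (adjusted p = 0.499). CRYAB is described above. Among the 4 J-domain members, DNAJB4 rose, DNAJA1 fell, and DNAJB1 and DNAJB6 were higher in both JMJD3 libraries without passing the threshold (log2 fold changes of 0.13 and 0.20, adjusted p = 0.274 and 0.0725 from edgeR). Both passed with library totals alone (0.30 and 0.37, adjusted p = 0.0320 and 0.0106 from edgeR). DNAJB6 also passed with the crossed block picked from the data (adjusted p = 0.0344 from edgeR), but not with the planned replicate block (adjusted p = 0.278 from edgeR). DNAJB1 shares 6.41% of its exon bases with TECR on the opposite strand. TECR had mean counts of 6989 and 4839 in vector and JMJD3 cells (log2 fold change -0.51), and DNAJB1 at most 2280 in a library. The value of DNAJB1 is therefore uncertain if strand was not kept. DNAJB4 (ENSG00000162616, chromosome 1) was at 3.16 and 1.78 CPM in vector libraries 1 and 2 and 5.64 and 4.83 CPM in JMJD3 libraries 1 and 2, from 117 and 68 against 209 and 179 counts. The vector libraries differed from each other by more than the JMJD3 libraries did, and the groups did not overlap (log2 fold change 1.09, standard error 0.26, adjusted p = 0.0182 from edgeR). Its log2 fold change was 1.51 without vector library 1 and 0.73 without vector library 2, and it missed the threshold with limma fitted on FPKM and with no filter on low counts (adjusted p between 0.0793 and 0.0831 from limma and edgeR). The window before the first of its 2 annotated starts holds no pair. That before the second (chr1:78004689-78004938, plus strand) is shown with its 1 pair, which begins 98 bases upstream.
DNAJB4: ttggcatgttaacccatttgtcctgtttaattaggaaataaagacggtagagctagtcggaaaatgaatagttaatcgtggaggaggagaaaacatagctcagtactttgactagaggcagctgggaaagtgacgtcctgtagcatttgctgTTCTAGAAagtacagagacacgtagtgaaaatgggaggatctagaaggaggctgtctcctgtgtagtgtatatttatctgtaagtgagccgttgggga

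DNAJA1, a cytosolic partner of HSP70, fell by little (log2 fold change -0.24, standard error 0.07, adjusted p = 0.0358 from edgeR), and only 7 of the 15 other fits called it. It was not called without JMJD3 library 1 or 2, at log2 fold changes of -0.23 and -0.24. Nor was it with library totals alone (-0.07, adjusted p = 0.460 from edgeR) or a replicate block (-0.24, adjusted p = 0.165 from edgeR). Of the 3 members that encode BAG proteins, which release ADP from HSP70, only BAG1 passed the threshold. BAG1 (ENSG00000107262, chromosome 9) was at 238 and 257 CPM in vector libraries 1 and 2 and 175 and 149.8 CPM in JMJD3 libraries 1 and 2. Both JMJD3 libraries lay below both vector libraries, JMJD3 library 2 the lowest (log2 fold change -0.61, standard error 0.10, adjusted p = 0.00520 from edgeR). BAG2 and BAG3 had log2 fold changes of -0.08 and -0.05 and turned sign with library totals alone. They were at -0.15 and -0.14 without vector library 1 and at -0.06 and -0.0014 without vector library 2. On the FPKM scale BAG1 was 11.5 and 12.1 times BAG3 in vector cells and 7.90 and 6.51 times in JMJD3 cells. BAG2 shares 42.7% of its exon bases with RAB23 on the opposite strand, whose log2 fold change was 0.95, so its own value is uncertain.

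HSF1 (ENSG00000185122, chromosome 8), the main heat shock factor, was at 125 and 151 CPM in vector libraries 1 and 2 and 89.5 and 92.8 CPM in JMJD3 libraries 1 and 2. Both JMJD3 libraries were low and close together, and the groups did not overlap (log2 fold change -0.60, standard error 0.11, adjusted p = 0.00722 from edgeR). HSF2, a second factor of the family, had overlapping groups and no sign that held over the fits (adjusted p = 0.993 from edgeR), turning to 0.07 without vector library 1 and 0.05 without JMJD3 library 1. The FPKM of HSF1 was 3.97 and 5.79 times that of HSF2 in vector cells and 3.20 and 3.09 times in JMJD3 cells.

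The cytosolic chaperonin (TRiC) folds actin and tubulin in a double ring of different subunits, of which 7 are members. Of these 7, 6 fell and CCT4 did not pass the threshold, and each was lower in both JMJD3 libraries than in both vector libraries, though CCT4 turned sign with library totals alone. Of all tested genes 19.1% fell and 34.8% had groups apart in that direction, and of those with at least 100 CPM, as all 7 have, 44.9% fell. TCP1 (ENSG00000120438, chromosome 6) was at 619 and 623 CPM in vector libraries 1 and 2 and 462 and 452 CPM in JMJD3 libraries 1 and 2 (log2 fold change -0.44, standard error 0.07, adjusted p = 0.00453 from edgeR). CCT3 (ENSG00000163468, chromosome 1) was at 643 and 691 CPM in vector libraries 1 and 2 and 507 and 485 CPM in JMJD3 libraries 1 and 2 (log2 fold change -0.43, standard error 0.08, adjusted p = 0.00659 from edgeR). CCT2 (ENSG00000166226, chromosome 12) was at 462 and 467 CPM in vector libraries 1 and 2 and 349 and 346 CPM in JMJD3 libraries 1 and 2 (log2 fold change -0.42, standard error 0.07, adjusted p = 0.00535 from edgeR). In all 3 the libraries of a group lay close together and the groups were well apart. Without JMJD3 library 2, however, TCP1, CCT3 and CCT2 missed the threshold, at log2 fold changes of -0.42, -0.39 and -0.41. CCT2 also did so without JMJD3 library 1 (-0.42) and with limma fitted on FPKM (-0.27 and -0.28, adjusted p = 0.0600 and 0.0629 from limma). CCT5 (ENSG00000150753, chromosome 5) was at 1479 and 1476 CPM in vector libraries 1 and 2 and 1306 and 1223 CPM in JMJD3 libraries 1 and 2, a smaller fall (log2 fold change -0.22, standard error 0.07, adjusted p = 0.0409 from edgeR). It passed the threshold in 6 of the 15 other fits but not without JMJD3 library 1 or 2, at log2 fold changes of -0.27 and -0.175. Nor did it pass with library totals alone (-0.05, adjusted p = 0.521 from edgeR) or a replicate block (-0.22, adjusted p = 0.153 from edgeR). CCT7 and CCT8 had log2 fold changes of -0.35 and -0.34 (adjusted p = 0.0186 and 0.0108 from edgeR). Neither was called without JMJD3 library 1 or 2, at -0.40 and -0.30 for CCT7 and -0.34 and -0.33 for CCT8. Both also missed the threshold with library totals alone (-0.18 and -0.17, adjusted p = 0.111 and 0.0823 from edgeR), and CCT7 with no filter (adjusted p = 0.0558 from edgeR). CCT4 was at -0.09 on the log2 scale (adjusted p = 0.343 from edgeR), at -0.17 without vector library 1 and at -0.06 without vector library 2.

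Per length the subunits were unequal, although they assemble into 1 complex. CCT5 had 1220.2 and 1167 FPKM in vector cells against 1110.4 and 1061 FPKM in JMJD3 cells, and CCT4 had 194 and 216 FPKM in vector cells against 186 and 184 FPKM in JMJD3 cells. These values of CCT4 were added after they were seen. In every library CCT5 was thus between 5.39 and 6.28 times CCT4 in FPKM. Of the exon bases of CCT5 30.8% are shared with an antisense gene, ENSG00000271980, with mean counts of 3046 and 2307 in vector and JMJD3 cells, and CCT4 shares 16.9% with genes on the opposite strand, so the ratio is uncertain. TCP1 shares 9.30% with ACAT2 on the opposite strand, whose log2 fold change was -0.91. Of the subunits outside the members, CCT6A and CCT6B were named after their values were seen. Neither was called (log2 fold changes of -0.11 and 0.21, adjusted p = 0.267 and 0.232 from edgeR).

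**Figure D4:**
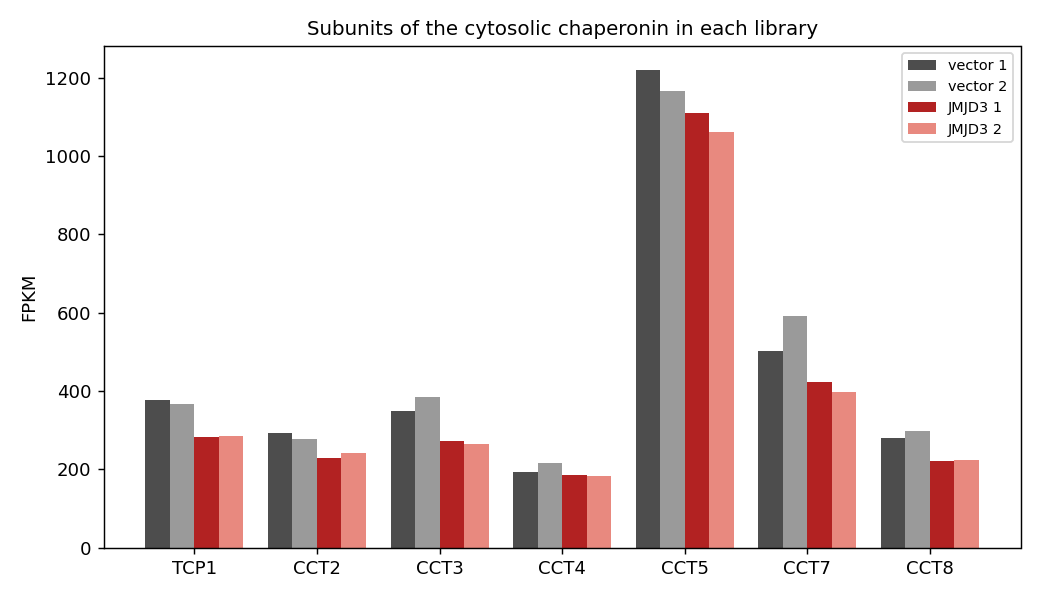
FPKM of the 7 chaperonin subunits among the members in each of the 4 libraries, with a bar for each library starting at 0. CCT5 has at least 1061 FPKM in every library, and no other subunit exceeds 590.4 FPKM.

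Of the 6 co-chaperones that serve HSP90 and HSP70, all with a mean above 100 CPM, 3 fell, against 44.9% of all genes at that level. CDC37, which brings kinases to HSP90, was at -0.34 on the log2 scale, AHSA1, which stimulates the HSP90 ATPase, at -0.29, and PTGES3 (p23), which holds the closed form, at -0.21 (adjusted p = 0.0204, 0.0327 and 0.0478 from edgeR). None of the 3 was called without JMJD3 library 1 or 2, at -0.37 and -0.30 for CDC37, -0.33 and -0.24 for AHSA1 and -0.22 and -0.19 for PTGES3. Of the 15 other fits 9 called CDC37, 7 AHSA1 and 5 PTGES3. With library totals alone CDC37 was at -0.17, AHSA1 at -0.12 and PTGES3 at -0.04, none of them called (adjusted p = 0.130, 0.255 and 0.650 from edgeR). A replicate block also ended the calls of AHSA1 and PTGES3 (adjusted p = 0.0936 and 0.215 from edgeR). STIP1, which joins HSP70 to HSP90, and the immunophilin FKBP4 were lower in both JMJD3 libraries without passing (-0.15 and -0.16, adjusted p = 0.162 and 0.159 from edgeR), passed without vector library 1 (-0.26 and -0.27, adjusted p = 0.0203 and 0.0150 from edgeR) but were both at -0.09 without vector library 2, and turned sign with library totals alone. ST13, which steadies the ADP form of HSP70, was at 0.08 on the log2 scale (adjusted p = 0.440 from edgeR) and passed only with library totals alone (0.25, adjusted p = 0.0407 from edgeR). Without vector library 2 it was at 0.02.

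CLU (ENSG00000120885, chromosome 8) encodes clusterin, a chaperone secreted from cells. It was at 0.836 and 0.838 CPM in vector libraries 1 and 2 and 1.89 and 2.30 CPM in JMJD3 libraries 1 and 2, from 31 and 32 against 70 and 85 counts. The vector libraries coincided and both JMJD3 libraries were higher (log2 fold change 1.32, standard error 0.23, adjusted p = 0.00599 from edgeR), the largest change of the 35 members at the lowest level of them. On the FPKM scale it was at 1.32 and 1.63 FPKM in vector cells against 2.26 and 5.40 FPKM in JMJD3 cells, and limma on FPKM did not call it (adjusted p = 0.0841 with 1 added and 0.0714 with 0.1 added).

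By mean FPKM over the 4 libraries HSPA8 came first at 2093, followed by CCT5 at 1139.7, HSP90AB1 at 1031 and HSP90AA1 at 877. HSPA8 led in both groups, but the order below it held in neither: by group means HSP90AB1 (1218 FPKM) stood above CCT5 (1194 FPKM) and HSPE1 (1012 FPKM) above HSP90AA1 (885 FPKM) in vector cells, and in JMJD3 cells CCT5 (1086 FPKM) was followed by HSP90AA1 (868 FPKM) and HSP90AB1 (844 FPKM). The range of HSPA8 over libraries did not overlap that of CCT5, while those of CCT5, HSP90AB1, HSP90AA1, HSPE1 and HSPD1 each overlapped the next. At the other end BAG2, DNAJB4 and CLU had means of 5.17, 3.25 and 2.65 FPKM, so all 36 members spanned from 0 for CRYAB to 2186 FPKM for HSPA8 in JMJD3 library 1. Named pseudogenes of the members held at most 0.0711% as many counts as the members in any library.

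Among a chosen list of 66 other genes of the chaperone system, which does not hold them all, 57 were tested, and 18 fell and 9 rose at an adjusted p under 0.05, or 31.6% and 15.8%, against 19.1% and 21.6% of all tested genes (median log2 fold change -0.10). Within that list the largest falls were of HSPA12B, an atypical HSP70, DNAJC9, a histone-binding J-domain protein, and DNAJC7, which binds HSP70 and HSP90. HSPA12B was at 3.43 and 4.17 CPM in vector cells against 1.86 and 2.08 CPM in JMJD3 cells (log2 fold change -0.94, standard error 0.18, adjusted p = 0.00879 from edgeR). DNAJC9 was at 176 and 183 CPM in vector cells against 116 and 109.9 CPM in JMJD3 cells (log2 fold change -0.67, standard error 0.08, adjusted p = 0.00231 from edgeR), and DNAJC7 at 175 and 184 CPM in vector cells against 121 and 116 CPM in JMJD3 cells (log2 fold change -0.60, standard error 0.08, adjusted p = 0.00281 from edgeR). All 3 were lower in both JMJD3 libraries. The largest rises within it were of HSPB6, a small heat shock protein, DNAJA4, a J-domain protein, and HSPA13, a microsomal HSP70 relative. HSPB6 rested on 8 and 5 counts in vector cells and 26 and 21 in JMJD3 cells and passed the filter on low counts through the JMJD3 libraries alone, so its rise, though counted among the 9, is uncertain and its p-value is left out. DNAJA4 was at 0.728 and 0.812 CPM in vector cells against 1.54 and 1.67 CPM in JMJD3 cells (log2 fold change 1.06, standard error 0.23, adjusted p = 0.0130 from edgeR), and HSPA13 had 765 and 588 estimated counts in vector cells and 1297 and 1228 in JMJD3 cells (log2 fold change 0.92, standard error 0.15, adjusted p = 0.00535 from edgeR). Of the 9 prefoldin and prefoldin-like subunits, which pass proteins to the chaperonin, 3 fell and none rose, against 19.1% and 21.6% of all tested genes, with a median log2 fold change of -0.26, against 0.04 for all tested genes.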

How the data were processed

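RNA-seq values of 4 NB4 libraries were used. For each gene and library the authors' deposited table gives an estimated count, of which 98.4% of the nonzero ones are not whole (tolerance 1e-06), and FPKM. The sources differ on how they were made: the submitters' processing notes name CASAVA 1.8, TopHat2 2.0.4, RSEM, edgeR and GRCh38, the design text BWA, TopHat, Cufflinks and ANOVA, and the methods Cutadapt, STAR, HTSeq-count, DESeq2 and hg19. The labels name DMEM and Trizol, and the paper names RPMI-1640 and a column kit. The table's columns of mean, fold change, p-value, FDR and call hold the authors' own comparison and were not used.

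Counts were rounded, filtered with filterByExpr (15246 of 60662 genes kept), given TMM factors and put through the quasi-likelihood test of edgeR 4.0.16 (R 4.3.3) without covariates, with Benjamini-Hochberg adjustment over all genes kept. The standard error is the log2 fold change's size over the square root of F. Alternatives were DESeq2 1.42.0 size factors and Wald test, upper quartile scaling, limma 3.58.1 (trend) on log2 FPKM with 1 or 0.1 added first, all genes with a count, at least 10 counts in every library, a replicate block, each library left out, counts summed by gene name, and stricter thresholds. Library totals alone, a crossed replicate block and the background at 100 CPM were added after seeing the data. Tests were tried on simulated data with changed genes of at least 200 mean counts, after a draw that also held genes of 20 fell short of the target; limma was then limited to the genes filterByExpr kept, also on the real data, since on all nonzero genes it had recovered none of the changed ones there. Exon sharing comes from GENCODE release 44 on GRCh37, promoters from RefSeq.

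Members and lists were chosen with earlier results of these data known. Values per library were to be given for the 12 members with the largest changes at an adjusted p under 0.05, the 4 with the highest FPKM, HSPA1A, HSPA1B and HSF1, and within a chosen list of 66 other chaperone genes the 3 largest rises and falls at that threshold were named.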

Additional observations from a re-analysis of the deposited data

How the results depend on the processing

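KDM6B kept a log2 fold change between 1.19 and 1.65 in all fits and 1.47 with a replicate block, which gave 3267 genes higher, 2415 lower and 3 and 13 members. The replicate 1 deviations of the groups correlated at -0.31, and a crossed block, added after that was seen, gave 4335 and 3772 genes and 4 and 19 members; the cause was not tested. Genes higher (3292) numbered 4764 with library totals only, 2046 and 2032 with limma on log2 FPKM with 1 and 0.1 added, 1893 with no filter, 1151 at 2-fold, 1468 at an adjusted p under 0.01 and 1890 to 4248 with a library left out. Genes lower (2906) numbered 1598 with library totals only, 1776 with no filter, 430 at 2-fold, 1300 at an adjusted p under 0.01 and 1110 to 4212 with a library left out. Members higher (3) numbered 6 with library totals only, 1 and 1 with limma, 1 with no filter and 1 at an adjusted p under 0.01. Members lower (18) numbered 9, 11 and 11, 10 and 9 in these fits, 0 at 2-fold and 5 to 22 with a library left out. Over 35 single results 422 values kept their sign and stayed on the same side of the adjusted p threshold, whatever their size. Another 74 kept their sign but lost the call, 9 kept their sign and gained a call, and 20 turned sign. With library totals only HSPA1A was at 0.0385, HSPA1B 0.0208, HSPA8 0.0369, HSP90AA1 0.158, BAG2 0.0924, BAG3 0.125, HSF2 0.168, CCT4 0.0784, STIP1 0.0166 and FKBP4 0.0123. HSP90AA1 was at 0.0277 with upper quartile scaling and from -0.102 to 0.0358 with a library left out. HSF2 was at 0.0379 with upper quartile scaling, 0.0244 and 0.0258 with limma, 0.0080 with at least 10 counts in every library, 0.0018 with the block, 0.0016 with the crossed block and from -0.112 to 0.0691 with a library left out.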
